A study of Mus musculus with 14 samples.

Results

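The genes described here build, drive or watch over the mitotic spindle: mitotic cyclins and kinases, the spindle checkpoint, centromere and kinetochore proteins, and the kinesin motors. They were taken by gene symbol from the expression table of the series, with a pattern that covers the families Kif, Cenp, Bub, Aurk, Cdca, Ccnb and Cdc25 and single genes such as Cdk1, Plk1, Top2a, Mki67 and Foxm1. The pattern found 84 genes among 10106 in the table. Of these, 79 had a mean over all libraries of at least 1 RPKM (reads scaled to gene length and library size) and were tested among 9793 genes. The 5 that did not pass, Kifc2, Kif3a, Kif13a, Kif5c and Kif7, are kinesins of transport and cilia, with means from 0.404 to 0.847 RPKM. Because the pattern works on names, it also takes in motors with no part in division, such as Kif5b, and genes such as Aurkaip1, named for an interaction with Aurora A.

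Libraries were made from polyadenylated RNA of OT-I CD8+ T cells, 14 in all. OT-I cells carry a transgenic receptor for SIINFEKL, a peptide of ovalbumin (OVA) shown on MHC class I. Isolated OT-I cells were labelled with the dye CFSE, which is diluted at each division, and transferred on day 0 into CD45.2+ C57BL/6 recipients. The age given is 8 to 12 weeks. On day 1 the mice received intravenous saline (Naive, 3 libraries), soluble OVA (OVA, 3), OVA directed to erythrocytes (ERY1-OVA, 3), free SIINFEKL (SIINFEKL, 2) or SIINFEKL directed to erythrocytes (TER119-SIINFEKL, 3). Each antigen was given at 223 pmol. Spleens were taken on day 4, red cells were lysed, and viable cells positive for CD3e, CD8 and CD45.1 were sorted. Every group therefore holds transferred, CFSE-labelled and sorted cells of 1 receptor. The Naive group served the study as the control for resting cells. Nothing in the labels says whether replicates came from separate recipients, so p-values measure the spread between these libraries, which may be technical.

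A resting T cell keeps its mitotic genes at low levels. After antigen a CD8+ T cell divides repeatedly, and genes of the G2 and M phases are then transcribed once in each cycle. Cyclin B with CDK1 starts mitosis, Aurora and Polo-like kinases shape the spindle, kinetochores join chromosomes to microtubules, and the checkpoint holds back the anaphase-promoting complex until every chromosome is attached. Many promoters of such genes are known to carry a CHR element (TTTGAA), which the DREAM and MuvB complexes read, and CCAAT boxes, which NF-Y binds.

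These 2 motifs were searched on both strands in the 250 bases before each RefSeq gene start (build GRCm38.p6). A promoter entry was found for 69 of the 84 members. TTTGAA was present in 26.1% of them, CCAAT in 59.4% and both in 20.3%. Over all 27025 genes with an entry the shares were 18.3%, 37.5% and 6.45%, and over the 7554 genes that were both in the expression table and in RefSeq they were 12.5%, 41.3% and 5.03%. Among the 10 transport kinesins with an entry, none held TTTGAA and 30% held CCAAT. Matches of the 2 motifs can share at most 1 letter, and a match describes letters only. The last 150 bases before the start are printed for 7 members whose levels are followed below and for Kif1b, a transport kinesin called lower than Naive, to show where the motifs lie. These are picked examples, and TTTGAA is commoner among the 7 than among the members. Plk1, Birc5, Cenpa and Ndc80, also followed below, held no TTTGAA in the 250 bases and are not printed. Capitals mark TTTGAA or CCAAT on either strand (TTCAAA and ATTGG are the same motifs read on the other strand).
Cdk1, chr10:69352913-69353062, minus strand: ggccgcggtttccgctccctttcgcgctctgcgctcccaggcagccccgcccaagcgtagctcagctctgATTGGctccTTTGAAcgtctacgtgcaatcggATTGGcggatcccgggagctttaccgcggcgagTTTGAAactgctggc
Top2a, chr11:99024190-99024339, minus strand: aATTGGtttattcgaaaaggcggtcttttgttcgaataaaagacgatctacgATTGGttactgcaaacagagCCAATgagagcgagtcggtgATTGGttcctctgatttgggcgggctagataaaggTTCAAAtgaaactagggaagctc
Kif11, chr19:37376232-37376381, plus strand: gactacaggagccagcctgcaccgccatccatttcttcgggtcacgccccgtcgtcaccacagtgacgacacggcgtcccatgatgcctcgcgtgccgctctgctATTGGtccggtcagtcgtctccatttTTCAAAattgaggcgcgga
Mki67, chr7:135716380-135716529, minus strand: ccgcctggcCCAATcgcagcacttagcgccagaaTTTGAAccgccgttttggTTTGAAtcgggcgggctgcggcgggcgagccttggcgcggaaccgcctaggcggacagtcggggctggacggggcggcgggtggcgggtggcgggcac
Cdc20, chr4:118437344-118437493, minus strand: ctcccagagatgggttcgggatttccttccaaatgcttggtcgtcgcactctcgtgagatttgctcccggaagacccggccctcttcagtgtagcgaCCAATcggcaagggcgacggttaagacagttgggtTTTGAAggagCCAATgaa
Ccnb1, chr13:100786487-100786636, minus strand: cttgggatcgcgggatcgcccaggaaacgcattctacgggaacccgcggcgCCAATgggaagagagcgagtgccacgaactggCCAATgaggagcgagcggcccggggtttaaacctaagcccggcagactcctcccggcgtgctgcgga
Bub1, chr2:127831860-127832009, minus strand: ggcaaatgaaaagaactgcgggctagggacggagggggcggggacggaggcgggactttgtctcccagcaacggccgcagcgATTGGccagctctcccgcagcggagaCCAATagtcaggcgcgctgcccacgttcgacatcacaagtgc
Kif1b, the first of 2 starts, chr4:149307734-149307883, minus strand: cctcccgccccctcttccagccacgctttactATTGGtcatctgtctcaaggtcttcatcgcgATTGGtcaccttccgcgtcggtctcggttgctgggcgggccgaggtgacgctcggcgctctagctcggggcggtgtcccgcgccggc
Cdk1 has TTTGAA 71 and 15 bases before the start and CCAAT at 80 and 48. Kif11 has TTTGAA at 19 and CCAAT at 45, and Cdc20 has TTTGAA at 18 and CCAAT at 53 and 8. Ccnb1 and Bub1 hold CCAAT but not TTTGAA in the bases printed, and so does Kif1b. A split chosen after the values were seen put members by their rise in OVA libraries over Naive. TTTGAA was present in 40.6% of 32 promoters of members with a log2 rise of at least 4 and in 15.2% of 33 promoters of the other members tested. CCAAT was present in 71.9% and 51.5%. No test was made on these shares.

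Summed over members, the libraries took 3 levels. In Naive libraries the 79 tested members summed to 480.8 to 494.5 RPKM. OVA, ERY1-OVA and TER119-SIINFEKL libraries summed to 1674.6 to 2527.8 RPKM. The 2 SIINFEKL libraries stood between, and apart from each other: SIINFEKL 1 summed to 973.7 RPKM and SIINFEKL 2 to 560.1 RPKM. The root mean variance of the members between replicates was 1.38 on the log2 scale in SIINFEKL and 0.211 to 0.384 in the other groups. For comparisons with SIINFEKL, the counts over the members and over the roles are therefore followed by medians with each library alone. Because these are bulk libraries, fewer dividing cells and less RNA of these genes per cell cannot be told apart.

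**Figure D1:**
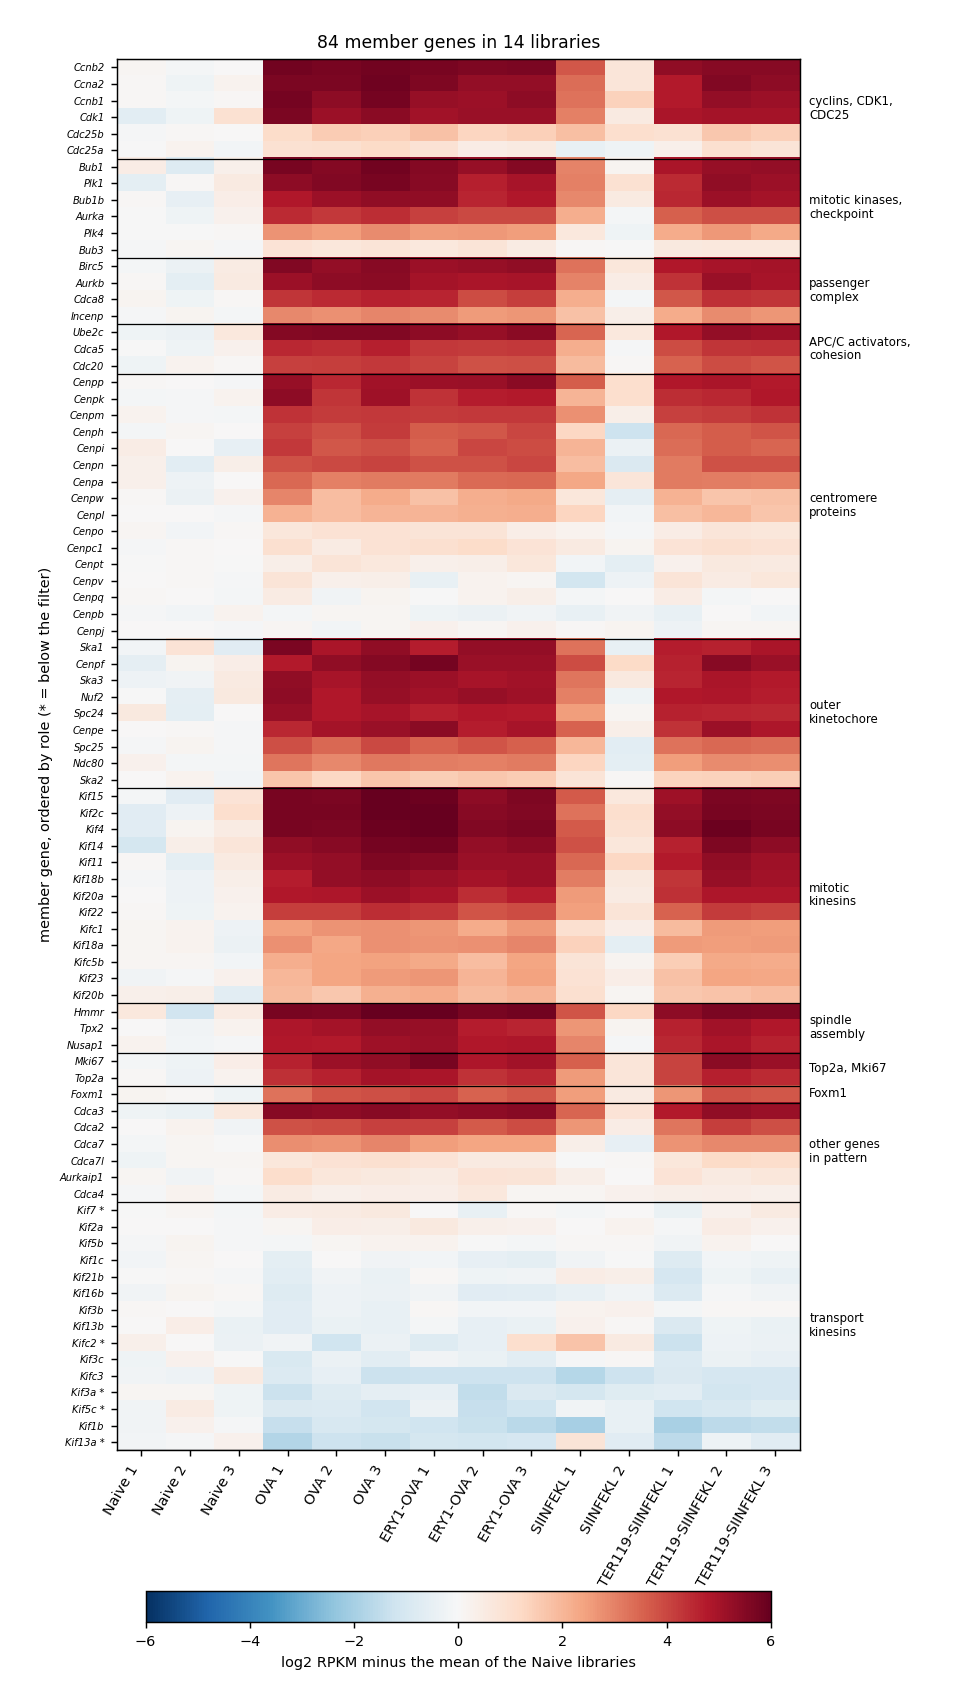
Heat map of 84 member genes (rows, ordered by role, an asterisk marking the 5 below the filter) in 14 libraries (columns). Colour gives log2 RPKM minus the mean of the 3 Naive libraries. Nearly every role is red in OVA, ERY1-OVA and TER119-SIINFEKL, paler in SIINFEKL 1 and close to Naive in SIINFEKL 2, while the transport kinesins at the bottom are pale or blue.

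Against Naive, most members were higher in the 3 groups that received OVA, ERY1-OVA or TER119-SIINFEKL. Called here means an adjusted p under 0.05 in limma (two-sided, Benjamini-Hochberg over 9793 genes), and fold changes are on the log2 RPKM scale. In OVA against Naive, 65 members were called higher and 4 lower, where 47.6% of all genes tested were called, 24.4% higher and 23.1% lower. The median log2 difference of the members was 3.94, against -0.04 for all genes. In ERY1-OVA against Naive the counts were 66 higher and 2 lower, with a median of 3.82, where 39.9% of all genes were called (20.9% higher, 19% lower) with a median of -0.01. In TER119-SIINFEKL against Naive they were 66 and 4, with a median of 3.59, where 47.6% were called (24.6% higher, 23% lower) and the median of all genes was 0. In SIINFEKL against Naive they were 32 and 2, with a median of 1.05, where 15.9% were called (7.58% higher, 8.34% lower) and the median of all genes was -0.01. With a pseudocount of 1 RPKM added before the log, the SIINFEKL counts were 22 and 2 and the median 0.65. These 4 comparisons share the Naive libraries. The fit also shares 1 spread per gene over all 5 groups. Between replicates the members' spread was 1.38 on the log2 scale in SIINFEKL and 0.211 to 0.384 in the other groups. For the members as a whole, SEs, intervals and p-values of SIINFEKL comparisons therefore understate how far its 2 libraries lay apart. Of the members, 65 were called higher in OVA, ERY1-OVA and TER119-SIINFEKL, and 32 of those 65 in SIINFEKL as well.

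Passing the filter was not independent of these differences. Of the 79, 20 had a Naive mean under 1 RPKM and passed through the groups in which they were high, among them Bub1, Hmmr, Cenpf and Kif4. The other 59 had at least 1 RPKM in Naive. Among those 59, 45 were called higher and 4 lower in OVA against Naive, with a median log2 difference of 2.64. The corresponding counts were 46 and 2 in ERY1-OVA (median 2.42), 46 and 4 in TER119-SIINFEKL (median 2.31) and 19 and 2 in SIINFEKL (median 0.56). Over all 79 members the SIINFEKL median was 0.17 without SIINFEKL 1 and 2.02 without SIINFEKL 2.

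**Figure D2:**
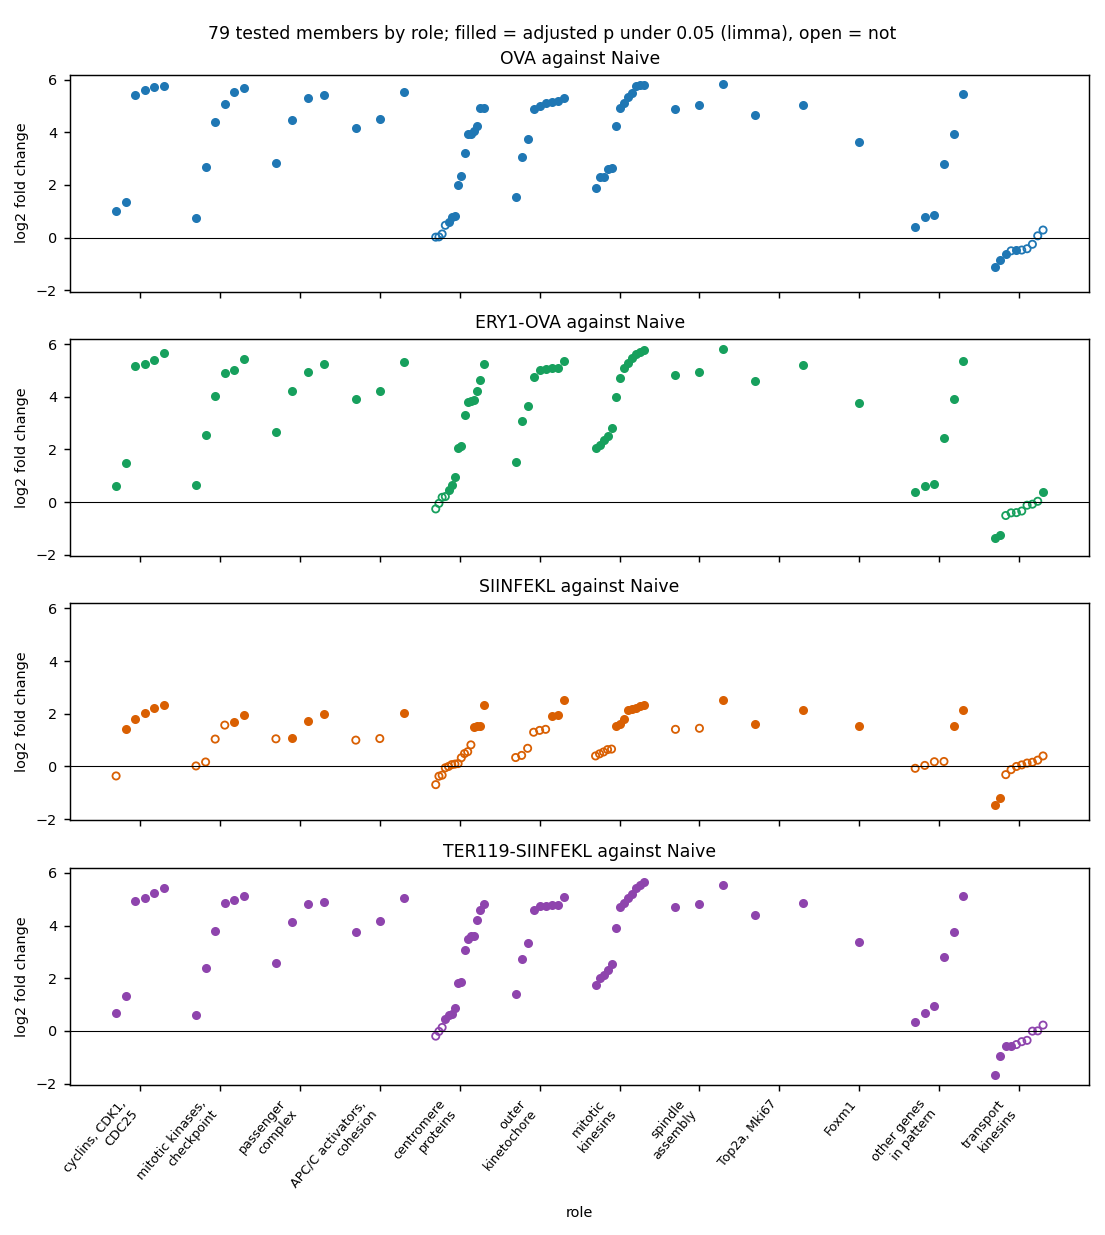
Log2 difference from Naive of each tested member (points) by role (x axis), 1 panel for each antigen group, filled where called and open where not. In OVA, ERY1-OVA and TER119-SIINFEKL most roles lie well above 0 and the transport kinesins around or below 0, and in SIINFEKL the points lie lower.

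Entry into mitosis was represented by the cyclins Ccna2, Ccnb1 and Ccnb2, their kinase Cdk1, and the phosphatases Cdc25a and Cdc25b, which remove the inhibitory phosphates from CDK1. These 6 genes were called higher in OVA, ERY1-OVA and TER119-SIINFEKL alike, and 5 of the 6 in SIINFEKL. Ccnb1, cyclin B1, read 1.28, 1.12 and 1.32 RPKM in Naive, 65.8, 51.6 and 65.6 in OVA, 46.2, 44.2 and 50.8 in ERY1-OVA, 34.1, 47.9 and 43.2 in TER119-SIINFEKL, and 11.9 and 3.21 in SIINFEKL. The Naive values lay below those of every other group, and both SIINFEKL values between Naive and the rest. The log2 difference from Naive was 5.61 ± 0.33 (SE) in OVA (limma adjusted p = 7.6e-08), 5.25 ± 0.33 in ERY1-OVA, 5.06 ± 0.33 in TER119-SIINFEKL and 2.32 ± 0.36 in SIINFEKL (limma adjusted p = 0.0013).

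Cdk1 read 0.705, 0.904 and 2.04 RPKM in Naive, 55.8, 38.3 and 46.1 in OVA, 36.3, 40 and 39.8 in ERY1-OVA, 32.3, 34.3 and 34.9 in TER119-SIINFEKL, and 9 and 1.58 in SIINFEKL. SIINFEKL 2 fell within the Naive range. The rise over Naive was 5.4 ± 0.48 (SE) in OVA, 5.15 in ERY1-OVA and 4.95 in TER119-SIINFEKL. Ccnb2, cyclin B2, had one of the largest rises of the module, from a Naive mean of 1.84 RPKM to 100 RPKM in OVA, 93 in ERY1-OVA and 78.8 in TER119-SIINFEKL, and read 24.1 and 3.08 in SIINFEKL.

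Cdc25b followed another course. It read 24.3, 26.9 and 26 RPKM in Naive, 55.3, 72.4 and 68.3 in OVA, 87.5, 61.8 and 69.2 in ERY1-OVA, 47.9, 79.7 and 68.5 in TER119-SIINFEKL, and 90 and 52.1 in SIINFEKL. All 4 antigen groups overlapped each other and none overlapped Naive. The rise over Naive was 1.34 ± 0.21 (SE) in OVA, 1.49 ± 0.21 in ERY1-OVA, 1.31 ± 0.21 in TER119-SIINFEKL and 1.41 ± 0.24 in SIINFEKL (limma adjusted p = 0.002). Between TER119-SIINFEKL and SIINFEKL the log2 difference was -0.1, with a 95% interval from -0.61 to 0.41. Cdc25a was higher than Naive in OVA by 1.03 but not called in SIINFEKL, where the difference was -0.36 ± 0.19 (limma adjusted p = 0.22).

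Mitotic kinases and the spindle checkpoint were called higher in 6 of 6 genes in each of OVA, ERY1-OVA and TER119-SIINFEKL, and in 2 of 6, Plk1 and Bub1b, in SIINFEKL. Plk1, the Polo-like kinase of spindle assembly and mitotic exit, read 0.674, 1.05 and 1.44 RPKM in Naive, 42.3, 46.7 and 52.5 in OVA, 45, 25.7 and 31.1 in ERY1-OVA, 22.3, 40.7 and 34.7 in TER119-SIINFEKL, and 8.06 and 1.88 in SIINFEKL. The ERY1-OVA and TER119-SIINFEKL values overlapped OVA or each other, and no antigen library fell into the Naive range. The rise in OVA was 5.54 ± 0.43 (SE; limma adjusted p = 5.6e-07).

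Bub1, a checkpoint kinase at the kinetochore, read 0.598, 0.254 and 0.542 RPKM in Naive, 22.6, 19.8 and 24.1 in OVA, 19.6, 16.3 and 20.2 in ERY1-OVA, 13.1, 16.5 and 16.6 in TER119-SIINFEKL, and 3.43 and 0.486 in SIINFEKL. SIINFEKL 2 lay inside the Naive range, and the SIINFEKL group was not called (1.57 ± 0.57, SE; limma adjusted p = 0.076). Its partner Bub3 stood at 37.3 RPKM in Naive and rose far less, by 0.76 ± 0.1 in OVA. Plk4, the kinase that starts centriole duplication, rose by 2.68 ± 0.19 in OVA, while its difference in SIINFEKL was 0.17 ± 0.21 (limma adjusted p = 0.61).

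The chromosomal passenger complex corrects faulty attachments and guides cytokinesis. Its members Aurkb, Birc5, Incenp and Cdca8 were 4 of 4 called higher in OVA, ERY1-OVA and TER119-SIINFEKL, and 3 of 4 in SIINFEKL. Aurkb, its kinase, read 1.04, 0.669 and 1.45 RPKM in Naive, 35, 40.8 and 42.6 in OVA, 31.9, 30 and 30.6 in ERY1-OVA, 20.2, 36 and 31 in TER119-SIINFEKL, and 7.95 and 1.37 in SIINFEKL. SIINFEKL 1 lay above Naive and SIINFEKL 2 within it. Birc5, survivin, read 1.52, 1.27 and 2.25 RPKM in Naive, 76.9, 63 and 70.5 in OVA, 57.9, 61.6 and 64.4 in ERY1-OVA, 45.7, 49.8 and 51.2 in TER119-SIINFEKL, and 15.8 and 2.63 in SIINFEKL. Birc5 in TER119-SIINFEKL lay below both OVA and ERY1-OVA in each library, by a difference that was not called (0.33 ± 0.44, SE, for ERY1-OVA minus TER119-SIINFEKL; limma adjusted p = 0.91). In OVA, Aurkb rose by 5.29 and Birc5 by 5.42 on the log2 scale.

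Anaphase is set off by CDC20 and by UBE2C, the ubiquitin-conjugating enzyme of the anaphase-promoting complex. Sororin, the product of Cdca5, protects cohesion until then. These 3 genes were called higher in OVA, ERY1-OVA and TER119-SIINFEKL, and Ube2c alone of them in SIINFEKL. Cdc20 read 3.21, 4.35 and 3.95 RPKM in Naive, 66.5, 66.7 and 70.9 in OVA, 62.8, 53.2 and 55.1 in ERY1-OVA, 44.9, 57 and 52.4 in TER119-SIINFEKL, and 14.4 and 4.04 in SIINFEKL. SIINFEKL 2 lay within the Naive range, and OVA above both groups directed to erythrocytes in every library. Its rise in OVA was 4.16 ± 0.31 (SE; limma adjusted p = 4.7e-07).

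Centromere proteins form the base of the kinetochore. Of 16 tested, 12 were called higher in OVA, 12 in ERY1-OVA, 13 in TER119-SIINFEKL and 4 in SIINFEKL. Cenph, Cenpi, Cenpk, Cenpm, Cenpn and Cenpp had Naive means below the filter and passed it through groups in which they were high. Cenpa, the histone H3 variant that marks centromeres, was the highest member in OVA, ERY1-OVA and TER119-SIINFEKL. It read 16.9, 11.3 and 14 RPKM in Naive, 150, 114 and 120 in OVA, 120, 146 and 152 in ERY1-OVA, 120, 116 and 113 in TER119-SIINFEKL, and 69.2 and 23 in SIINFEKL. Both SIINFEKL libraries were above every Naive library and below every library of the other antigens. Its rise was 3.2 ± 0.29 (SE) in OVA and 1.53 ± 0.32 in SIINFEKL (limma adjusted p = 0.0075).

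Cenph and Cenpk encode subunits of the constitutive centromere network on which the kinetochore is built. Cenph read 0.902, 1.07 and 1.02 RPKM in Naive, 17.1, 14.7 and 18 in OVA, 12.4, 13.3 and 16.1 in ERY1-OVA, 10.8, 12.2 and 13.6 in TER119-SIINFEKL, and 2.38 and 0.414 in SIINFEKL. The 2 SIINFEKL libraries lay on opposite sides of Naive. Cenpk rose by 4.91 ± 0.28 (SE) in OVA and by 1.51 ± 0.31 in SIINFEKL (limma adjusted p = 0.0067).

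Some centromere genes stayed near Naive. Cenpb, whose product binds a box in centromeric satellite DNA, differed from Naive in OVA by 0.03 ± 0.14 (SE), Cenpj by 0.02 ± 0.14 and Cenpq by 0.14 ± 0.18, and none of these 3 was called against Naive in any antigen group. Cenpj is named for centromeres but acts at centrioles. Cenpv read 4.9, 5.02 and 4.57 RPKM in Naive, 8.13, 5.92 and 6.24 in OVA, 3.57, 5.54 and 5.16 in ERY1-OVA, 8.28, 6.85 and 7.66 in TER119-SIINFEKL, and 2.26 and 3.94 in SIINFEKL. It was called higher than Naive in TER119-SIINFEKL (0.65 ± 0.21, SE; limma adjusted p = 0.022) and in no other antigen group.

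The outer kinetochore binds microtubules directly, through the NDC80 and SKA complexes and the large proteins CENP-E and CENP-F. All 9 genes tested were called higher in OVA, ERY1-OVA and TER119-SIINFEKL, and 3 of 9 in SIINFEKL, namely Cenpe, Cenpf and Ska3. These 3, with Nuf2 and Ska1, were under 1 RPKM in Naive and passed the filter through groups in which they were high. Ndc80 read 3.65, 2.85 and 2.78 RPKM in Naive, 28.3, 22.3 and 27.9 in OVA, 25.5, 24.8 and 27 in ERY1-OVA, 17.8, 22 and 21.4 in TER119-SIINFEKL, and 7.46 and 2.03 in SIINFEKL. SIINFEKL 2 was below the lowest Naive library and SIINFEKL 1 above the highest. Ndc80 rose by 3.08 ± 0.32 (SE) in OVA (limma adjusted p = 7.1e-06). Its difference in SIINFEKL, 0.34 ± 0.36, was not called (limma adjusted p = 0.56).

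Mitotic kinesins slide, bundle or depolymerize spindle microtubules. All 13 tested were called higher in OVA, ERY1-OVA and TER119-SIINFEKL, and 8 in SIINFEKL. Of these 13, Kif14, Kif15, Kif18a, Kif18b, Kif2c and Kif4 were under 1 RPKM in Naive. They passed the filter through groups in which they were high. Kif11, the motor that pushes spindle poles apart, read 1.01, 0.649 and 1.4 RPKM in Naive, 34.2, 37.6 and 47.1 in OVA, 43.9, 35.4 and 35.8 in ERY1-OVA, 26.6, 38.7 and 33.1 in TER119-SIINFEKL, and 10.6 and 2.28 in SIINFEKL. Every antigen library exceeded every Naive library. The rise was 5.34 ± 0.42 (SE) in OVA (limma adjusted p = 5.9e-07) and 2.34 ± 0.46 in SIINFEKL (limma adjusted p = 0.0054).

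Other motors rose further on the log2 scale. Kif2c, which depolymerizes microtubules at kinetochores, rose by 5.78 in OVA, 5.68 in ERY1-OVA and 5.54 in TER119-SIINFEKL. Kif15, which backs up Kif11, rose by 5.78, 5.62 and 5.44, and the chromokinesin Kif4 by 5.75, 5.79 and 5.66. All 3 of these were under 1 RPKM in Naive, where a small number of reads sets the fold. Kifc1 and Kifc5b are near-identical copies whose reads the counting could split, so their values of 2.64 and 2.32 in OVA are uncertain.

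Spindle assembly factors Tpx2, Nusap1 and Hmmr were 3 of 3 called higher in OVA, ERY1-OVA and TER119-SIINFEKL. Hmmr, a microtubule-associated protein of spindle poles, had the largest rise of the module in OVA, ERY1-OVA and SIINFEKL by fitted log2 difference, at 5.82, 5.82 and 2.52. It read 0.552, 0.157 and 0.497 RPKM in Naive, 18.4, 17.5 and 24.1 in OVA, 22, 18.2 and 19.4 in ERY1-OVA, 14.7, 17.7 and 17.1 in TER119-SIINFEKL, and 4.8 and 0.84 in SIINFEKL. Both SIINFEKL libraries lay above Naive.

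Top2a encodes the topoisomerase that untangles sister chromatids, and Mki67 the Ki-67 antigen of cycling cells. Top2a read 5.03, 3.83 and 5.49 RPKM in Naive, 98.1, 118 and 148 in OVA, 139, 94.5 and 110 in ERY1-OVA, 79.1, 120 and 105 in TER119-SIINFEKL, and 27.6 and 7.75 in SIINFEKL. Mki67 read 1.6, 1.48 and 2.35 RPKM in Naive, 43.5, 62.1 and 71.5 in OVA, 91.2, 51.1 and 57.4 in ERY1-OVA, 29.2, 74.8 and 63.4 in TER119-SIINFEKL, and 21.2 and 2.89 in SIINFEKL. For both genes the OVA, ERY1-OVA and TER119-SIINFEKL values overlapped, and SIINFEKL lay between them and Naive. Top2a rose by 4.66 ± 0.35 (SE) and Mki67 by 5.03 ± 0.55 in OVA.

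Foxm1, the transcription factor that acts with MuvB on late cell cycle promoters, read 1.94, 1.85 and 1.43 RPKM in Naive, 16.8, 23.2 and 25.4 in OVA, 27.5, 20.4 and 23.1 in ERY1-OVA, 10.7, 24.2 and 22.6 in TER119-SIINFEKL, and 9.9 and 2.54 in SIINFEKL. TER119-SIINFEKL 1 was close to SIINFEKL 1. The rise was 3.64 ± 0.4 (SE) in OVA and 1.54 ± 0.45 in SIINFEKL (limma adjusted p = 0.034). Of the remaining genes of the pattern, 6 of 6 were called higher in OVA. Among them Cdca7, a chromatin factor, rose by 2.8 ± 0.16 in OVA and differed from Naive by -0.07 ± 0.18 in SIINFEKL (limma adjusted p = 0.83).

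**Figure D3:**
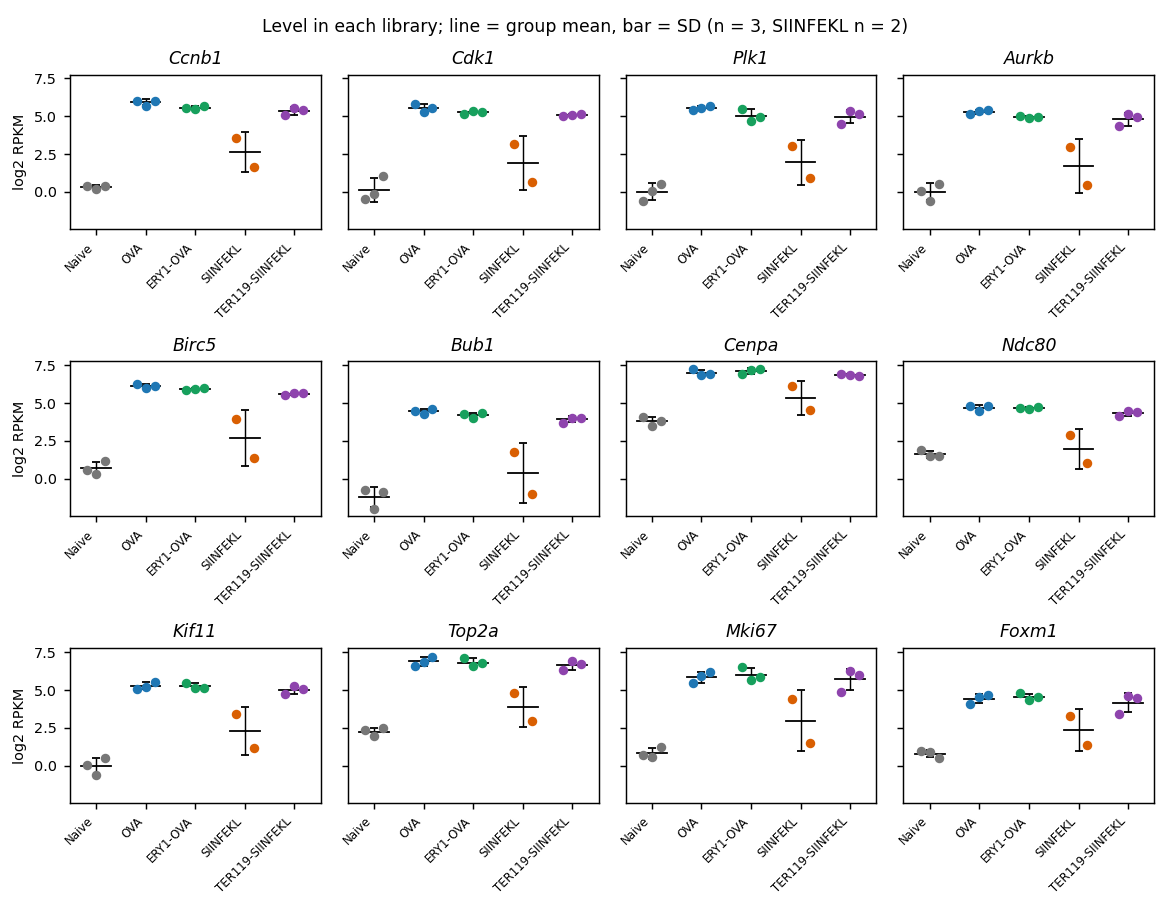
Log2 RPKM of 12 member genes (panels) in each library by group (x axis), with the group mean as a line and the SD as a bar (n = 3, SIINFEKL n = 2). In every panel the means of OVA, ERY1-OVA and TER119-SIINFEKL are the highest, Naive is near the bottom, and the 2 SIINFEKL points are apart. SIINFEKL 2 is the nearer to Naive. For Foxm1 and Mki67, TER119-SIINFEKL 1 lies closer to SIINFEKL 1 than to the rest of its group.

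The kinesins listed for transport, cilia and other roles outside division mostly carry vesicles, mitochondria and ciliary cargo. Of 10 tested, none was called higher in OVA and 4 were called lower, Kif1b, Kifc3, Kif3c and Kif3b, where 23.1% of all genes were lower. In TER119-SIINFEKL none was higher and 4 were lower (Kif1b, Kifc3, Kif21b and Kif3c), beside 23% of all genes. In ERY1-OVA 2 of the 10 were lower, which is near the 19% of all genes. The 1 called higher there was Kif2a (0.38 ± 0.14, SE; limma adjusted p = 0.041), a microtubule depolymerase that is also known at spindle poles and is no cargo motor. In SIINFEKL none was higher and 2 were lower (Kif1b and Kifc3), beside 8.34% of all genes. With so few genes these counts say little about the group. The median log2 difference of the 10 from the Naive mean was -0.02 in SIINFEKL 1 and 0.06 in SIINFEKL 2. Kif1b, a motor of mitochondria and synaptic vesicles, read 14, 19.1 and 15.3 RPKM in Naive, 6.1, 8.32 and 7.7 in OVA, 7.03, 6.38 and 5.24 in ERY1-OVA, 4.11, 5.45 and 5.65 in TER119-SIINFEKL, and 4.09 and 11.7 in SIINFEKL. All 11 antigen libraries were below the lowest Naive library. Kif1b fell by 1.13 in OVA (SE 0.29; limma adjusted p = 0.0066), by 1.37 in ERY1-OVA, by 1.67 in TER119-SIINFEKL and by 1.21 in SIINFEKL on the log2 scale.

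Kifc3 was the other member called lower in all 4 antigen groups, from 1.53, 1.44 and 2.56 RPKM in Naive to 0.547 and 0.745 in SIINFEKL and 0.734 to 1.28 in the rest. Its fall in OVA, -0.85 ± 0.27 (SE), and that of Kif3c, -0.63 ± 0.21, lost the call when Naive 3 or OVA 3 was left out, and that of Kif3c also without Naive 2 or OVA 1. Kif5b, the conventional kinesin heavy chain, stayed at 19.7 to 26.6 RPKM in every library, and its differences from Naive ranged from 0 to 0.07.

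Kif21b, a kinesin that restrains microtubule growth, was the highest member in Naive libraries and again in SIINFEKL. It read 72.2, 77 and 70.2 RPKM in Naive, 46.8, 62.5 and 56.2 in OVA, 77.8, 60.9 and 64.1 in ERY1-OVA, 35.6, 61.5 and 53.6 in TER119-SIINFEKL, and 100 and 93.1 in SIINFEKL. Both SIINFEKL libraries were above all 12 others. Against Naive the SIINFEKL difference of 0.4 ± 0.19 (SE) was not called (limma adjusted p = 0.18), and in TER119-SIINFEKL Kif21b was lower by a log2 difference of -0.58 ± 0.17 (limma adjusted p = 0.015), a call that was lost without TER119-SIINFEKL 1. TER119-SIINFEKL was below SIINFEKL by -0.98 ± 0.19 (limma adjusted p = 0.0017).

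The SIINFEKL libraries differed in how many members had left the Naive range. Of all 79 members, SIINFEKL 1 was above the highest Naive library in 64 and below the lowest in 9, where 38.8% of all genes were above and 38.9% below. SIINFEKL 2 was above in 36 and below in 15, where 29.3% of all genes were above and 33.9% below. Among the 65 members called higher in OVA, which were chosen against the same Naive libraries, SIINFEKL 1 was above the highest Naive library in 60 and SIINFEKL 2 in 32. Each OVA, ERY1-OVA and TER119-SIINFEKL library was above it in 64 or 65. All 65 had been called higher in these 3 groups, so those counts are no independent yardstick. The median log2 difference from the Naive mean over these 65 was 2.49 in SIINFEKL 1 and 0.36 in SIINFEKL 2, and SIINFEKL 1 exceeded SIINFEKL 2 in 62. In SIINFEKL 2, 20 of the 65 were below the Naive mean, against 3 in SIINFEKL 1. The lowest was Cenph, at -1.26, followed by Cenpn, an inner kinetochore protein that binds CENP-A nucleosomes, at -0.88. Left without SIINFEKL 1, the comparison with Naive had a median of 0.17 over all 79, and without SIINFEKL 2 of 2.02. Medians of the log2 difference from the Naive mean were also taken by role, in SIINFEKL 1 and SIINFEKL 2 in that order. They were 3.15 and 0.73 in the cyclin role, 2.53 and 0.06 in kinases and checkpoint genes, and 2.59 and 0.41 in the passenger complex. Anaphase genes had 2.19 and 0.08, and centromere genes 0.98 and -0.12. The outer kinetochore had 3 and 0.05, mitotic kinesins 2.54 and 0.59, and spindle assembly 2.96 and 0.17. With both libraries, the comparison called 16 of 79 members without Naive 1, where 1050 of all genes tested were called. It called 14 without Naive 2, where 935 of all genes were called. When the fit held these 2 groups alone it called 2, where 605 of all genes were called. Of 27 members followed by name and called in SIINFEKL against Naive, Ccnb1 alone kept the call under each alternative tried.

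**Figure D4:**
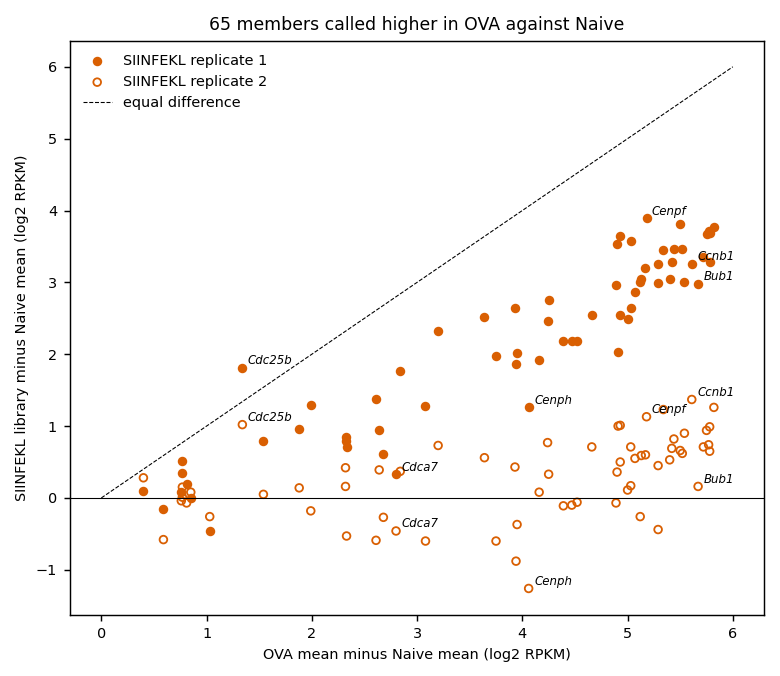
Log2 difference from the Naive mean of the 65 members called higher in OVA, for SIINFEKL 1 and SIINFEKL 2 against the rise in OVA. SIINFEKL 1 (median 2.49) lies above SIINFEKL 2 (median 0.36) for 62 of the 65.

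Directing OVA to erythrocytes was compared with soluble OVA at the same dose. No member was called between ERY1-OVA and OVA, where 1.06% of all genes were called (0.408% higher, 0.654% lower). At an unadjusted p under 0.05 the limma fit counted 4 members, or 5.06% against 17.2% of all genes. These 4 were Cenpv, Kif3b, Cdc25a and Cdca7, named here after their values were seen, and the lowest adjusted p of any member was 0.12. The members' log2 differences ranged from -0.52 to 0.39 with a median of -0.11. For 44 of 79 the 95% interval lay within a 2-fold change either way, and for the rest it did not. The widest interval bounds reached -1.61 and 1.34. The fit shares 1 spread per gene over all 5 groups, so the unlike SIINFEKL libraries enter these p-values and intervals. With only OVA and ERY1-OVA fitted, 12 members had an unadjusted limma p under 0.05 and 0 were called, where 132 genes in all were called. All genes at the unadjusted threshold were not counted in this fit, so the 12 have no share to stand beside. For Ccnb1 the difference was -0.37, with an interval from -1.07 to 0.33, and for Kif11 it was -0.04, from -0.93 to 0.85. Mki67 differed by 0.16, from -1.03 to 1.34.

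The 2 forms directed to erythrocytes gave similar counts. No member was called between ERY1-OVA and TER119-SIINFEKL, where 0.562% of all genes were called (0.0715% higher, 0.49% lower). An unadjusted p under 0.05 in limma was reached by 4 members, Cenpv, Cdca7l, Kif21b and Cdca7, likewise named after their values were seen, and the lowest adjusted p was 0.19. Differences ranged from -0.7 to 0.46 with a median of 0.17, and 69 of 79 were positive. The interval lay within a 2-fold change for 45 of the 79. Here too the spread is shared with SIINFEKL. With only the 2 groups fitted, 10 members had an unadjusted limma p under 0.05 and 0 were called, where 39 genes in all were called. Here again all genes at the unadjusted threshold were not counted. Cdk1 differed by 0.19, with a 95% interval from -0.84 to 1.23, and Top2a by 0.18, from -0.57 to 0.92. TER119-SIINFEKL 1 was the lowest library of its group in the members' sum, at 1674.6 RPKM against 2200.8 and 2058.1. Without it and OVA 1 the median difference was 0.03.

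For the peptide, the form directed to erythrocytes and the free form differed. TER119-SIINFEKL exceeded SIINFEKL in 64 members and was lower in 2, Kif21b and Kif13b, where 37.4% of all genes were called, 20.4% higher and 17% lower. The median log2 difference was 2.58. Of the 59 members with at least 1 RPKM in Naive, 44 were higher and 2 lower, with a median of 1.54. The other 20, which include Cenph and Cenpk, passed the filter only through groups in which they were high. Kif13b was near the threshold (-0.68, limma adjusted p = 0.043) and lost the call in 14 of the alternatives. Cdca7 differed by 2.89 ± 0.18 (SE; limma adjusted p = 6e-07), Plk4 by 2.2 ± 0.21, Cenpk by 3.06 ± 0.31, Kif20a, a motor of cytokinesis, by 3.17 ± 0.41, and Cenph by 3.61 ± 0.47 (limma adjusted p = 9.7e-05). With SIINFEKL 1 alone standing for the free peptide the median was 1.39, and with SIINFEKL 2 alone it was 3.58. A fit with a lone library assumes that it varies like the other groups, so no counts from these fits are given here.

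Soluble OVA exceeded free SIINFEKL in 64 members and was lower in 4, Kif21b, Kif3b, Kif3c and Kif13b, where 42.2% of all genes were called (22.4% higher, 19.9% lower). The median was 2.71, and 1.69 with SIINFEKL 1 alone or 3.91 with SIINFEKL 2 alone. Of the 59 members with at least 1 RPKM in Naive, 44 were higher and 4 lower, with a median of 1.85. Kif13b and Kif3c were near the threshold (limma adjusted p = 0.043 and 0.042) and lost the call in 13 and 10 of the alternatives.

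The effect of directing antigen to erythrocytes was tested as a difference of differences, (ERY1-OVA minus OVA) minus (TER119-SIINFEKL minus SIINFEKL). The protein was directed with ERY1 and the peptide with TER119, so the form of antigen and the binder change together and cannot be told apart. The difference was called in 63 members, 61 below 0 and 2 above, where 37.7% of all genes were called (20.6% below, 17.1% above). Of the 59 members with at least 1 RPKM in Naive, 41 were below 0 and 2 above, with a median of -1.71. Over all 79 the median was -2.54, and the median half-width of the members' 95% interval was 1.12. Cdca7 had the smallest adjusted p, at -3.26 ± 0.24 (SE; limma adjusted p = 2.5e-06). Kif21b (1.28 ± 0.26) and Kif3b (0.64 ± 0.19), both transport kinesins, were the 2 above 0. Cdc25b was not called, at 0.25 with an interval from -0.44 to 0.94. With SIINFEKL 1 alone the median over all 79 was -1.48, and with SIINFEKL 2 alone it was -3.66.

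**Figure D5:**
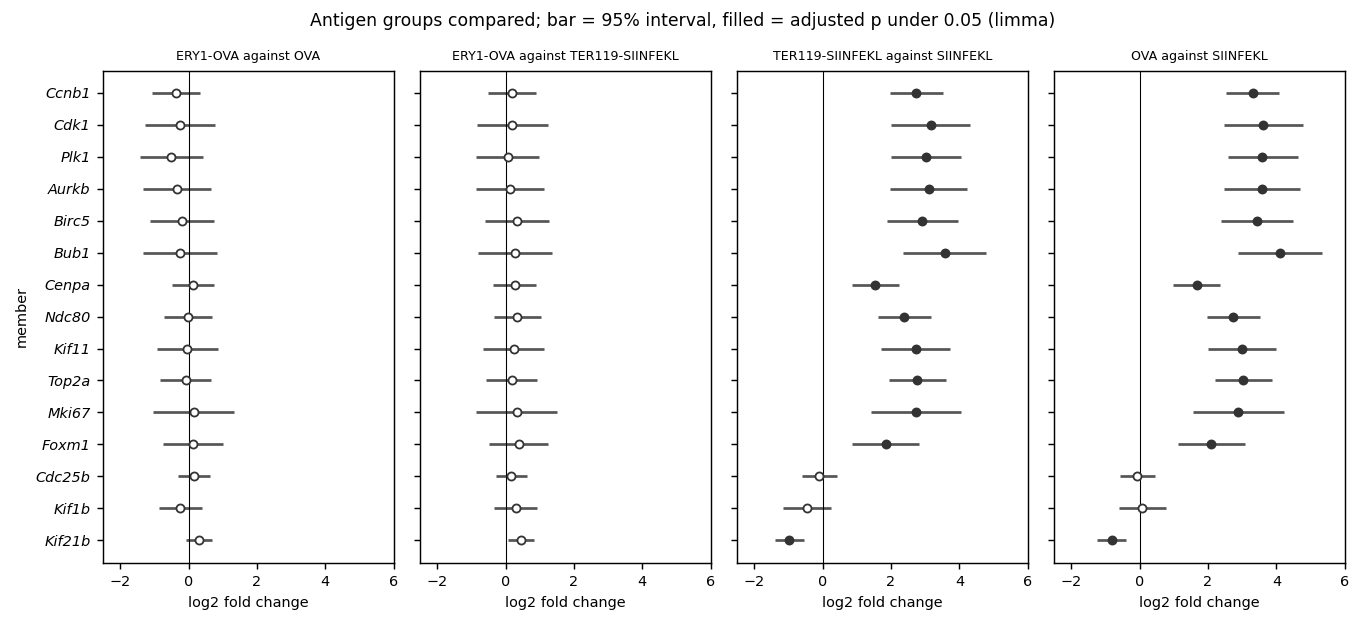
Log2 difference (x axis) of 15 members (rows) in 4 comparisons between antigen groups (panels), with 95% intervals as bars and called differences filled. Both comparisons of ERY1-OVA lie around 0 with no call, and both comparisons with SIINFEKL lie above 0 apart from Cdc25b, Kif1b and Kif21b.

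Mitotic genes outside the name pattern were followed as a separate list of 109 tested genes. In OVA against Naive, 85 were called higher and 3 lower, 80.7% in all beside 47.6% of all genes, with a median of 1.02 beside -0.04. In ERY1-OVA the counts were 81 and 1, or 75.2% beside 39.9%, and in TER119-SIINFEKL 81 and 3, or 77.1% beside 47.6%. In SIINFEKL they were 15 and 2 of the 109, where 7.58% of all genes were called higher and 8.34% lower. Both directions together made 15.6% beside 15.9% of all genes, but the list's calls were mostly higher. The median was 0.27 beside -0.01. These SIINFEKL values rest on the 2 unlike libraries. Condensin, which compacts chromosomes, had 8 of 8 genes called higher in OVA, among them Smc2 (2.27 ± 0.14, SE; limma adjusted p = 1.4e-07) and Ncaph (4.43 ± 0.29). Cytokinesis genes were 8 of 9 higher, with Prc1, the bundler of the central spindle, at 4.76 ± 0.32. Checkpoint and kinetochore genes with other names were 19 of 21 higher, including Trip13, which remodels the checkpoint protein MAD2, at 5.03 ± 0.37.

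Genes of spindle poles and centrosomes were 22 of 27 higher in OVA, with Dlgap5 at 4.06 ± 0.28 (SE). Cohesin, separase and shugoshin were 7 of 14 higher. Separase itself, Espl1, which cuts cohesin at anaphase, was at 5.44 ± 0.58, while the cohesin subunit Rad21 rose by 0.92 ± 0.09. Subunits and inhibitors of the anaphase-promoting complex were 11 of 15 higher, with a median of 0.57 and Fbxo5, the inhibitor EMI1, at 2.87 ± 0.24. Genes of mitotic entry and transcription were 10 of 15 higher, led by Mybl2, the MuvB partner, at 5.53 ± 0.39. The 3 called lower were Nipbl (-0.58), the loader of cohesin, Numa1 (-0.41), a spindle pole protein, and Rbl2 (-0.44), the pocket protein p130 of the DREAM complex in resting cells.

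Markers of the sorted cells and of others were read beside these values. The 4 CD8 T cell markers with values (Cd8a, Cd8b1, Cd3e and Cd3d, of 5 listed) summed to 2107 to 2392 RPKM in Naive, 1550 to 1814 in OVA, 1714 to 1879 in ERY1-OVA, 2047 to 2114 in SIINFEKL and 1402 to 1857 in TER119-SIINFEKL. Dendritic cell markers (3 of 4) summed to 51.4 RPKM in OVA 1 and 27.4 in TER119-SIINFEKL 1, against 6.17 to 22.7 elsewhere. Erythroid markers (3 of 8) summed to 18.03 to 46.07 RPKM outside TER119-SIINFEKL and 49.26 to 76.93 in it, most of it Tfrc, the transferrin receptor, which dividing T cells also express. Hba-a1, a globin gene, was highest in TER119-SIINFEKL 1, at 9.08 RPKM. B cell (1 of 4), CD4 (1 of 1), NK (1 of 2) and macrophage (2 of 5) markers summed to at most 17.64 RPKM in any library, and plasma cell markers (0 of 2) had no values. Klrb1c, the NK marker, was highest in TER119-SIINFEKL 1, at 14.7 RPKM. Of the macrophage markers, Lyz2 was highest in OVA 1, at 11.5 RPKM, and Cd68 in ERY1-OVA 3, at 10.3 RPKM. With OVA 1 and TER119-SIINFEKL 1 left out together, 67 members were called in OVA and 68 in TER119-SIINFEKL against Naive. The part of these markers in the members' differences was not tested.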

How the data were processed

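Among tools, the submitters' processing notes list STAR 2.4.2, bcl2fastq 2.17.1.14 and edgeR, and among builds mm10 and GRCm38, with no role or order. The read counter, annotation, gene lengths, filter and prior count are not given in the sources used here. The values deposited by the authors are log2 RPKM, 1 column per library. The log base is read from the values: multiplied by GENCODE length in kilobases, RPKM added up to between 1763893 and 2042615 in a library on base 2, and to between 22637275 and 37605390 on base e, and the unit calls for the smaller order. Depth per library is unknown: 0 genes shared a lowest value between 2 libraries, so whole reads could not be recovered, and no counting interval is given.

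Genes with a mean of at least 1 RPKM were kept (9793 of 10106). Limma 3.58.1 (R 4.3.3) was fitted to 5 group means over all 14 libraries with a trend in the prior variance (9 residual and 4.6 prior degrees of freedom), and tested on simulated data. P-values are two-sided and adjusted by Benjamini-Hochberg over all genes tested in each of 9 comparisons. Fold changes carry no added pseudocount. Members, role lists and the pathway list were chosen with earlier results of these data known, and Aurkaip1 was put in its role after the values were seen. Named members are 12 core genes, the 5 largest rises and every fall against Naive, up to 4 members per role by adjusted p with up to 3 called in no comparison, and up to 8 per direction between antigen groups. Values of other members are given where they complete a role or a library range. Gene lengths are from GENCODE M21, and promoters from RefSeq. Replicate numbers were not used as a block: of 26 same-numbered pairs of libraries 14 correlated above 0.1 in their deviations from group means, with every pair above it for Naive with TER119-SIINFEKL, where the block left the count at 70, but not for most group pairs. Alternatives were pseudocounts of 1 and 0.1, no filter and a filter of 3 RPKM, quantile and median scaling, a replicate block, only the groups compared, array weights, OVA 1 and TER119-SIINFEKL 1 left out together, each library left out, and, added after seeing the data, a correction for length and GC content.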

Additional observations from a re-analysis of the deposited data

Results flagged for a closer look

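The difference of ERY1-OVA from OVA and that of TER119-SIINFEKL from SIINFEKL were not alike, tested as (ERY1-OVA minus OVA) minus (TER119-SIINFEKL minus SIINFEKL), with a limma call in 63 members. The form of antigen and the binder, ERY1 or TER119, change together here and cannot be told apart. For the cyclin and kinase genes it was -3.11 for Ccnb1, -3.42 for Cdk1, -3.53 for Plk1, -2.33 for Plk4, -3.45 for Aurkb and -3.82 for Bub1 on the log2 scale. Birc5 of the passenger complex was at -3.11. The anaphase genes Cdc20 and Cdca5 were at -3.01 and -3.41. Of the centromere and kinetochore genes named here, Cenpa was at -1.41, Ndc80 at -2.4, Cenpk at -3.36 and Cenph at -3.87. All 16 centromere genes ranged from -3.87 to 0.32, with 12 called below 0, where 20.6% of all genes were. The 9 outer kinetochore genes ranged from -3.54 to -0.98. Cenph, Cenpk and Bub1 were under 1 RPKM in Naive and passed the filter through groups in which they were high. The mitotic motors Kif11 and Kif20a were at -2.76 and -3.4. Top2a was at -2.85, Mki67 at -2.57, Foxm1 at -1.71 and Cdca7 at -3.26. The transport kinesins Kif21b and Kif3b stood on the other side of 0, at 1.28 and 0.64. The SIINFEKL term rests on 2 libraries whose members differed by a median of 2.25 on the log2 scale over the 65 called in OVA. Foxm1, Mki67 and Cenpa lost the call without SIINFEKL 2, and Foxm1 and Mki67 also without OVA 3, ERY1-OVA 2, ERY1-OVA 3, TER119-SIINFEKL 2 or TER119-SIINFEKL 3, and Foxm1 without OVA 2.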

How the results depend on the processing

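Counts of members called in OVA, ERY1-OVA and TER119-SIINFEKL against Naive, in OVA and TER119-SIINFEKL against SIINFEKL, and in the difference of the targeting effects stayed within 1.5 times the reported count under every alternative run. With 1 library outside SIINFEKL left out they ran from 66 to 72, 64 to 69, 66 to 70, 65 to 68, 63 to 66 and 59 to 65. SIINFEKL against Naive ran from 5 (without SIINFEKL 1) to 57 (without SIINFEKL 2) beside 34 with all libraries, with 16 without Naive 1 and 14 without Naive 2. It called 2 when fitted on the compared groups alone, a setting in which OVA against Naive called 73. The spread then comes from Naive and SIINFEKL alone. For the members it was 1.38 on the log2 scale in SIINFEKL and 0.211 to 0.384 in the other groups. In the main fit 1 spread per gene is shared over all 5 groups. ERY1-OVA against OVA and ERY1-OVA against TER119-SIINFEKL stayed at 0 with any library left out. With array weights they gave 6 and 5 of 79 members, where 2468 and 2477 of all genes tested were called. The main fit called 104 and 55 of all genes. The estimation of these weights stopped before it converged. With the length and GC correction ERY1-OVA against OVA gave 1 member, where 300 of all genes were called. The cause was not tested. No result reversed. Of the single-gene results, 7043 values kept their side of the threshold, 178 lost a call and 39 gained one.

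Whether the replicate numbers pair the libraries is mixed. Same-numbered libraries correlated with a median of 0.13 (-0.44 to 0.67) and others with a median of -0.085, and 14 of 26 same-numbered pairs were over 0.1 beside 15 of 52 others. All 3 pairs were over 0.1 for Naive with TER119-SIINFEKL (0.26 to 0.32) and for OVA with TER119-SIINFEKL (0.25 to 0.67), and not for the other pairings of groups of 3. With the replicate block the counts in OVA, ERY1-OVA, SIINFEKL and TER119-SIINFEKL were 69, 68, 32 and 70 against Naive, 65 and 66 for TER119-SIINFEKL and OVA against SIINFEKL, 62 for the difference of targeting effects, and 0 for both comparisons of ERY1-OVA with another antigen group. Precision is limited by 2 or 3 libraries a group: the median half-width of the members' 95% interval was 0.75 between groups of 3. SIINFEKL results rest on 2 unlike libraries. No count moved by over 1.5 times under the block.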
